A study of Rattus norvegicus with 23 samples.

Results

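Gjb1, Gjc3 and Gja1 encode connexins of glial cells, and their RNA was followed through cultures of the oligodendrocyte lineage. These 3 genes were taken by name from the authors' deposited tables and traced by identifier through the read counts, out of 32552 genes listed. Gjb1 (ENSRNOG00000003746) encodes Cx32, Gjc3 (ENSRNOG00000001329) encodes Cx29 and Gja1 (ENSRNOG00000000805) encodes Cx43. Gjc3 and Gja1 had a count in all 23 libraries. Gjb1 had one in the 12 libraries of differentiating CG4 cells and was not analysed here in the others.

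The libraries came from rat cells and formed 6 groups. CG4 is an immortalized line that stems from oligodendroglia of rat brain. In 3 groups of 4 libraries, CG4 cells expressed pCAG-IRES-EGFP (control), pCAG-myc-Zfp488-IRES-EGFP or pCAG-T7-Nkx2.2-IRES-EGFP, and all 3 were differentiated for 3 days in SATO medium with T3, T4 and CNTF. The pCAG promoter is active in most cell types, so both factors were overexpressed from a general promoter, and the control carried the vector and EGFP too. A group of 3 libraries came from wild-type CG4 cells without a vector, kept proliferating with bFGF and PDGF-AA. Wild-type primary oligodendroglia, shaken off mixed glial cultures of rat brain, gave 4 proliferating libraries in the same factors and 4 libraries after 3 days in the differentiation medium. Zfp488 and Nkx2.2 are transcription factors of the oligodendrocyte lineage, and by its title the study sought their target genes.

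Connexins assemble as hexamers into hemichannels, and hemichannels of adjoining membranes dock into gap junction channels that pass ions and small molecules. Oligodendrocytes use Cx32 and Cx29, whereas Cx43 is the main connexin of astrocytes. Cx32 channels also join layers of the same myelin sheath, while Cx29 is thought to form hemichannels rather than coupled channels. Mutations of human GJB1 cause X-linked Charcot-Marie-Tooth neuropathy, a disease of peripheral myelin.

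The introduced proteins act on DNA, so the 250 bases before the RefSeq start of each gene (build GRCr8) are shown, with matches to 7 short motifs in capitals. The counts were made on build rn6, so these coordinates belong to the sequences alone. Gjb1 lies at chrX:70541595-70541844 on the + strand, Gjc3 at chr12:22024568-22024817 on the - strand and Gja1 at chr20:36302314-36302563 on the + strand.
Gjb1: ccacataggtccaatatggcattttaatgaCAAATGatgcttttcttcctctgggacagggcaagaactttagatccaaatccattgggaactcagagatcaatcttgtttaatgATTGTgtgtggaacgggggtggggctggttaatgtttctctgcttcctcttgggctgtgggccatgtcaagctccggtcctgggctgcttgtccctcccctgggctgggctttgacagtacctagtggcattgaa
Gjc3: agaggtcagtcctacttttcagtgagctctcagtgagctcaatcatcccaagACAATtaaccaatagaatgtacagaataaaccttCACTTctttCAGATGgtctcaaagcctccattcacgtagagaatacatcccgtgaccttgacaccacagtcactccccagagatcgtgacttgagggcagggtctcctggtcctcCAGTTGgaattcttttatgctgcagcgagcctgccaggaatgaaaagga
Gja1: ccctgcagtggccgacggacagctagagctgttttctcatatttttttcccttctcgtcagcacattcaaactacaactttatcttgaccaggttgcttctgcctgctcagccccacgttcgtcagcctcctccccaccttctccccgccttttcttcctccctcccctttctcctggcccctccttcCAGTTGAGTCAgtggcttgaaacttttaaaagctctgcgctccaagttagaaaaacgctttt

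Both strands were searched, and positions are the first matched base counted back from the start. In Gjb1 the capitals are an E-box (CANNTG) at 220 and the SOX core ACAAT at 135, read on the other strand. In Gjc3 they are ACAAT at 198, the NKX2 core AAGTG at 164 on the other strand, and E-boxes at 155 and 49. In Gja1 an E-box at 62 overlaps an AP-1 site (TGANTCA) at 58. Of 33469 rat promoters of this length, 65.5% held an E-box, 40.6% AAGTG, 30.02% ACAAT and 6.34% the AP-1 site. The SOX core ACAAAG (16.3% of promoters), TATAAA (12.9%) and the GC box GGGCGG (30.5%) had no match in the 3 windows. Gjb1 is known to use more than 1 promoter, and only the window of its RefSeq entry was read.

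Library totals ran from 20063345 to 49206479 counts. Levels are given as CPM, read counts relative to the TMM-scaled library total. Changes are log2 fold changes ± SE, tested with edgeR (quasi-likelihood test) and adjusted over all genes. The introduced RNAs followed the labels: Zfp488 stood at 131 to 201 CPM in its group and 34 to 58.8 CPM in control, and Nkx2-2 at 1290 to 2010 CPM against 210 to 304 CPM. Of 9 mature oligodendrocyte markers 8 were measured, and their summed level was 67700 to 76700 CPM in differentiating primary cells, 8210 to 14300 CPM in control and 902 to 2080 CPM in both proliferating groups. Of 10 astrocyte markers 8 were measured, and Gfap, Aldh1l1 and Agt were below 1 CPM in every proliferating CG4 library, Aldh1l1 at 0. The 2 pairs of differentiating primary libraries (1 with 2, 3 with 4) stood apart from each other. The first proliferating CG4 library stood apart by its Gjc3 level. Where leaving these libraries out changed a call, turned a direction or moved a value by over 1.5 times, the value without them is given. In bulk RNA, fewer cells of a type and less RNA per cell cannot be told apart.

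Gjc3 was lowest in proliferating and highest in differentiating primary cells. It stood at 1153, 1210, 958 and 934 CPM in the 4 differentiating primary libraries and at 1.94, 1.83, 2.22 and 2.16 CPM in the proliferating ones. Its levels in CG4 cells lay between those of the primary groups: 206, 132, 157 and 168 CPM in control, 282, 157, 174 and 247 CPM with Zfp488, and 116, 122, 80.2 and 183 CPM with Nkx2.2. Proliferating CG4 libraries gave 302, 51.3 and 44.7 CPM, the first above every other CG4 library. By mean the order was differentiating primary, Zfp488, control, proliferating CG4, Nkx2.2 and proliferating primary. The place of proliferating CG4 rests on its first library, since the other 2 lay below every Nkx2.2 library. The 4 CG4 groups overlapped one another, and both primary groups lay outside them.

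**Figure D1:**
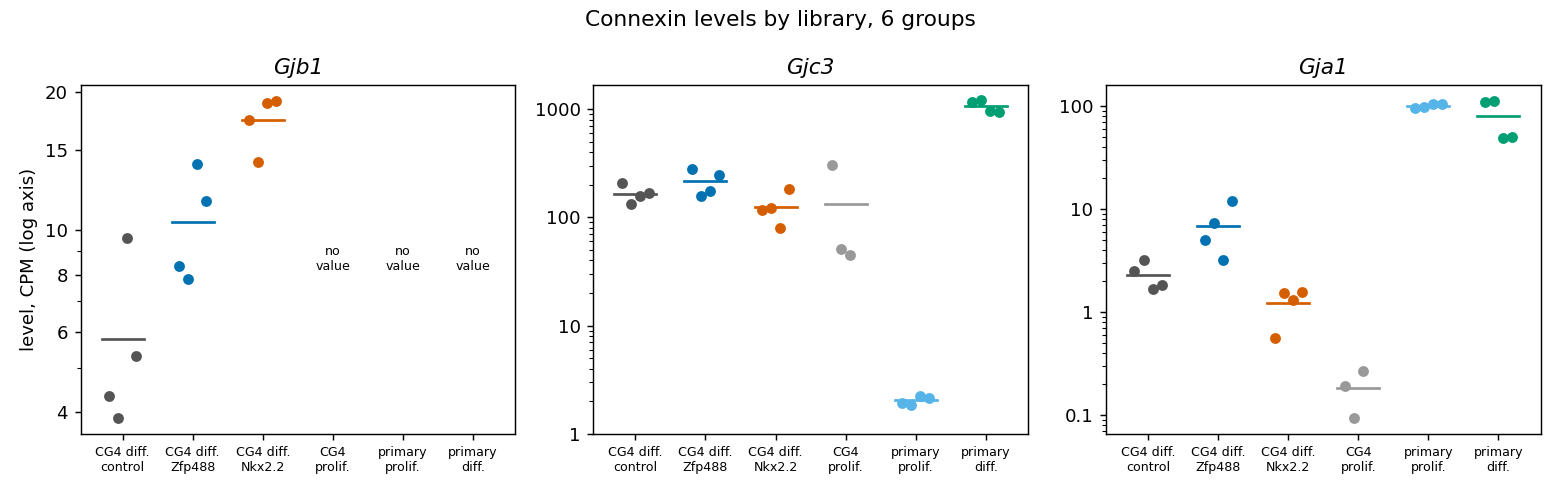
Levels of Gjb1, Gjc3 and Gja1 in CPM on a log axis, 1 point per library in the order of its replicate number, with a bar at the group mean (4 libraries per group, 3 for proliferating CG4). Gjc3 runs from 1.83 CPM in proliferating to 1210 CPM in differentiating primary cells, Gja1 is highest in both primary groups, and Gjb1 was listed in the differentiating CG4 libraries.

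Gja1 had another order. It stood at 96.6, 97.0, 104 and 105 CPM in proliferating primary libraries and at 109, 112, 48.7 and 49.9 CPM in differentiating ones. In CG4 cells it was far lower, at 5.04, 7.38, 3.20 and 11.98 CPM with Zfp488, 2.48, 3.20, 1.67 and 1.83 CPM in control and 0.560, 1.52, 1.29 and 1.55 CPM with Nkx2.2. Proliferating CG4 libraries held 8, 3 and 11 reads of Gja1, or 0.191, 0.0937 and 0.267 CPM. The primary groups overlapped each other, and the lowest Zfp488 library matched the highest control library at 3.20 CPM. Nkx2.2 lay below control and above proliferating CG4 cells in every library.

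Gjb1 was lowest by mean in control, higher with Zfp488 and highest with Nkx2.2. The control libraries gave 4.34, 3.89, 9.61 and 5.31 CPM, those with Zfp488 8.34, 7.82, 13.9 and 11.6 CPM, and those with Nkx2.2 17.4, 14.1, 18.9 and 19.2 CPM. Every Nkx2.2 library lay above every other one. Control replicate 3, at 9.61 CPM, lay above Zfp488 replicates 1 and 2, so these groups overlapped.

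Differentiation of primary oligodendroglia raised Gjc3 535-fold, and Gja1 was not called. The comparison asks what changes when primary cells stop dividing and mature. Gjc3 rose by a log2 change of 9.06 ± 0.12 (adjusted p = 3.89e-13, n = 4 against 4). It went from at most 2.22 CPM to levels above every CG4 library. Of the genes tested, 84.8% passed in this comparison.

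For Gja1 the change in primary cells was -0.29 ± 0.25 (adjusted p = 0.297), and the 2 pairs of differentiating libraries went opposite ways. With differentiating replicates 1 and 2 left out, Gja1 fell by 0.98 on the log2 scale (adjusted p = 2.06e-20). With replicates 3 and 4 left out, it rose by 0.20 (adjusted p = 0.000587). Each of these fits kept 1 pair of differentiating libraries, so its p-value does not measure the spread between the pairs. Chi-square over degrees of freedom was 8.45 between replicates 1 and 2 and 1.77 between 3 and 4. Across the pairs it was 29.3 to 37.1. The astrocyte marker sum followed the pairs: 2490 and 2430 CPM in replicates 1 and 2, 1450 and 1420 CPM in replicates 3 and 4. In proliferating cells it was 119 to 125 CPM. After differentiation most of it was Gfap (1067 ± 481 CPM, SD) and Slc1a3 (384 ± 86.7 CPM), and Aldh1l1 varied too (10.8 ± 3.52 CPM). Aldoc (277 ± 18.1 CPM), Fgfr3 (122.5 ± 6.53 CPM) and Slc4a4 (41.4 ± 2.26 CPM) varied little, so the sum does not stand for every marker. The 3 measured microglia markers summed to 446 to 466 CPM in proliferating and 18.7 to 24.8 CPM in differentiating libraries. The 2 measured fibroblast and pericyte markers summed to 56.8 to 78.4 CPM and 5.52 to 10.5 CPM, and the 5 measured neuron markers to 299 to 307 CPM and 173 to 196 CPM. The part of these cell types in the Gja1 levels was not tested.

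Among 6 tested connexins and pannexins in primary cells, 3 rose and 1 fell, where 41.5% of all genes rose and 43.3% fell. Their median log2 change was 1.21, against -0.02 over all genes. Besides Gjc3, Panx1 rose by 2.68 ± 0.20 (adjusted p = 2.06e-07), or by 2.204 without differentiating replicates 1 and 2 and 3.07 without 3 and 4. Panx1 encodes a large-pore channel of the plasma membrane that forms no gap junction. Gjb2, the gene of Cx26, rose by 2.66 ± 0.42 (adjusted p = 0.000108) from a mean of 0.157 to 1.01 CPM, or by 2.02 and 3.05 with the same pairs left out. Gjc1, the gene of Cx45, fell by 2.52 on the log2 scale (SE 0.15, adjusted p = 2.73e-08), from 8.33 ± 0.98 to 1.40 ± 0.28 CPM (SD, n = 4).

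Differentiating CG4 control cells compared with proliferating CG4 cells gave another picture: Gja1 rose and Gjc3 was not called. Gja1 changed by 3.62 ± 0.46 (12.3-fold, adjusted p = 0.000228), from 0.184 ± 0.087 CPM (SD, n = 3) to 2.30 ± 0.70 CPM (n = 4). Every control library lay above every proliferating one, and 65.8% of genes passed here. The log2 change of Gjc3 was 0.34 ± 0.62 (adjusted p = 0.644). Without the first proliferating library, at 302 CPM, it was 1.81 ± 0.20 and passed (adjusted p = 0.000225), so the call turns on that library. That library held the highest Gjc3 of its group, so leaving it out was bound to raise the change. That library also held the lowest Gjc1, at 5.09 CPM against 23.7 and 16.1 CPM. Proliferating CG4 libraries were read at 2 x 100 bases and the others at 2 x 150, and they carried no vector, so read length, vector and differentiation cannot be told apart.

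In CG4 differentiation 5 of 8 tested connexins and pannexins rose and 1 fell, where 32.5% of all genes rose and 33.2% fell. Without the first proliferating library 7 rose and 1 fell. The rises were 4 without proliferating library 2 or 3, without control replicate 1, 2 or 4, or with DESeq2. With numbered pairs as a block 3 of 7 rose. Panx2 rose by 2.52 ± 0.40 (adjusted p = 0.00074) and Gjd2, the gene of the neuronal Cx36, by 3.64 ± 1.00 (adjusted p = 0.012). The change of Gjd2 was 6.04 without the third proliferating library and 2.94 without control replicate 4. Gjc1 fell by 1.67 on the log2 scale (SE 0.44, adjusted p = 0.00997), as it had in primary cells. All 8 measured mature oligodendrocyte markers rose in this comparison too, and 5 of 8 astrocyte markers, whose sum went from 173 to 359 CPM up to 2380 to 3790 CPM.

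**Figure D2:**
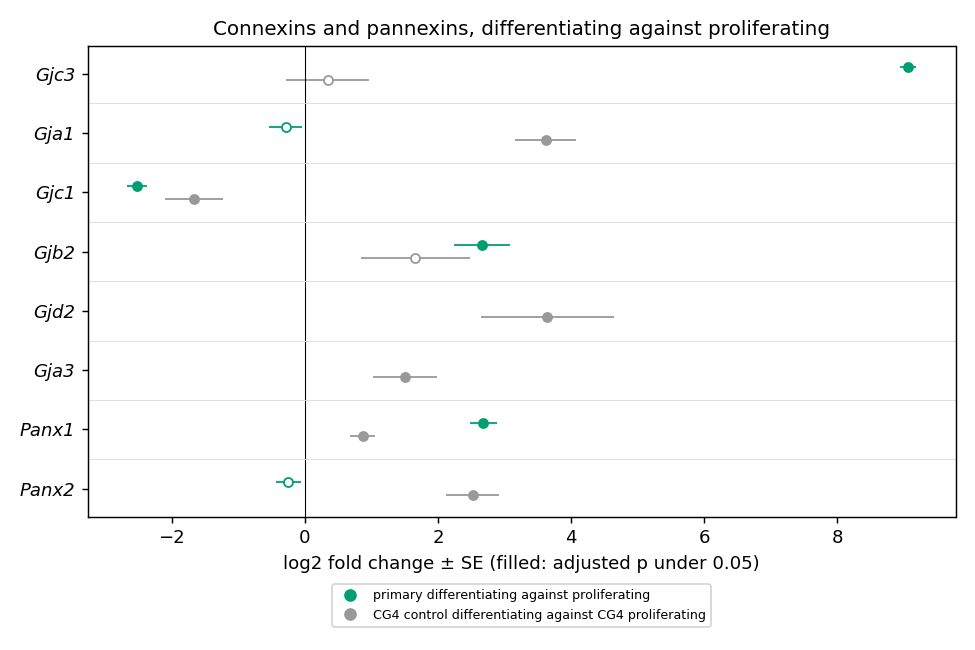
Log2 fold change ± SE of connexin and pannexin genes, differentiating against proliferating, in primary cells (green) and CG4 cells (grey). Filled points have an adjusted p under 0.05 by edgeR's quasi-likelihood test. Gjc3 lies above 9 in primary cells, where Gja1 lies near 0, while in CG4 cells Gja1 lies at 3.62 and Gjc3 at 0.34.

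The differentiation responses of the 2 cell systems differed for both members by a direct test. The CG4 response of Gjc3 minus the primary response was -8.69 ± 0.74 on the log2 scale (adjusted p = 1.05e-07), or -7.22 without the first proliferating CG4 library. For Gja1 this difference was 3.92 ± 0.57, the CG4 response being larger (adjusted p = 2.19e-05), or 4.62 without differentiating primary replicates 1 and 2 and 3.45 without 3 and 4. In all, 69.3% of genes differed between the responses. These differences came from both ends of the course. Proliferating CG4 cells already held 64.1 times the Gjc3 RNA of proliferating primary cells (log2 6.003 ± 0.58, adjusted p = 3.2e-07, 71.2% of genes called), or a log2 change of 4.55 without the first library.

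Differentiating CG4 control cells held less of both genes than differentiating primary cells. Gjc3 was lower by a log2 change of -2.68 ± 0.46 (adjusted p = 0.000106) and Gja1 by -5.13 ± 0.32 (adjusted p = 3.05e-09), in a comparison in which 73.0% of genes passed. For Gja1 this was -4.425 without primary replicates 1 and 2 and -5.59 without 3 and 4. Between the proliferating groups Gja1 differed by -9.05 ± 0.48 (adjusted p = 4.04e-10). Primary and CG4 libraries share no culture, and cell system and preparation cannot be told apart. The CG4 response also held a change of vector and read length, the proliferating groups differed in read length, and CG4 control carried a vector. These cannot be told apart from cell system either.

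In the fit without the replicate number, Zfp488 raised Gja1 in differentiating CG4 cells, and neither Gjb1 nor Gjc3 passed. Gja1 went from 2.30 ± 0.70 to 6.90 ± 3.79 CPM (SD, n = 4 each), a log2 change of 1.60 ± 0.39 (3.03-fold, adjusted p = 0.0275), where 9.04% of genes passed. The call was lost without control replicate 1, 3 or 4 or Zfp488 replicate 2 or 4, with an adjusted p of up to 0.0959. It was kept with DESeq2 (adjusted p = 0.00108). It was also kept with the replicate number as a block, which compares libraries of the same number (1.49, adjusted p = 0.00581, 24.1% of genes called). Gjb1 went from 5.79 ± 2.62 to 10.4 ± 2.87 CPM, a log2 change of 0.86 ± 0.28 (adjusted p = 0.0749). With the block it was 0.89 (adjusted p = 0.00223, 24.1% of genes called), and without control replicate 3 it was 1.21 (adjusted p = 0.0144). Gjc3, at 166 ± 31.0 and 215 ± 59.5 CPM, differed by 0.39 ± 0.24 (adjusted p = 0.361).

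Nkx2.2 raised Gjb1 3.01-fold, while Gjc3 and Gja1 did not pass. Gjb1 changed by 1.59 ± 0.28 on the log2 scale (adjusted p = 0.0032), to 17.4 ± 2.35 CPM (SD, n = 4), among 10.6% of genes called. Leaving out any 1 library gave 1.44 to 1.95, with an adjusted p of at most 0.0133. Gja1 stood at 1.23 ± 0.46 CPM, and its groups did not overlap, but the log2 change of -0.90 ± 0.41 did not pass (adjusted p = 0.195, or 0.0637 with the block). Gjc3 stood at 125 ± 42.6 CPM and differed from control by -0.40 ± 0.24 (adjusted p = 0.334). Both factors were set against the same 4 control libraries.

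**Figure D3:**
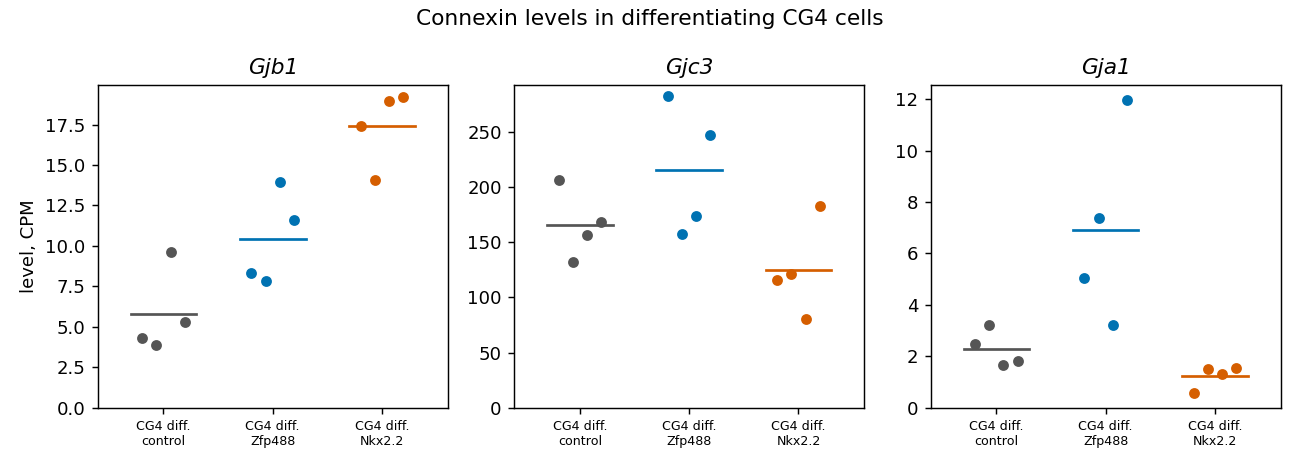
Levels of the 3 connexin genes in differentiating CG4 cells in CPM on linear axes from 0, 1 point per library and a bar at the mean of 4 libraries. Nkx2.2 libraries lie highest for Gjb1 and lowest for Gja1, and Zfp488 libraries have the highest mean for Gjc3 and Gja1.

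Set directly against each other, the factors split the connexins. Gja1 was higher with Zfp488 than with Nkx2.2 by 2.496 ± 0.42 (5.64-fold, adjusted p = 0.00128, 25.3% of genes called), with no overlap. Gjc3 was higher with Zfp488 by 0.79 ± 0.25 (adjusted p = 0.0339). It did not pass in a fit of these 2 groups alone (adjusted p = 0.0595) or without Zfp488 replicate 1 or 4 or Nkx2.2 replicate 1, 2 or 3. It passed with the block (0.79, adjusted p = 0.00336, 42.4% of genes called) and with DESeq2 (adjusted p = 0.00957). Gjb1 was lower with Zfp488 in every library, by a log2 change of -0.73 ± 0.27 (adjusted p = 0.0673). With the block that change was -0.78 (adjusted p = 0.00181, 42.4% of genes called), and without Zfp488 replicate 3 it also passed, at -0.91 (adjusted p = 0.0429).

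The balance of 2 connexins within a library needs no scaling between libraries. The log2 ratio of Gjb1 to Gja1 reads was 3.21 to 4.93 with Nkx2.2, above the 0.28 to 2.52 of control and the -0.05 to 2.11 of Zfp488. The ratio of Gjb1 to Gjc3 was -3.25 to -2.08 with Nkx2.2, also above control (-5.57 to -4.02) and Zfp488 (-5.08 to -3.64). Nkx2.2 libraries thus held the most Gjb1 relative to either other gene. The ratio of Gjc3 to Gja1 was -5.72 to -5.53 in proliferating and 3.40 to 4.30 in differentiating primary cells, and 4.37 to 10.5 in CG4 cells. These ratios are not per length and say nothing of which RNA is more abundant.

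Of the 22 genes on the list of connexins and pannexins, 9 had a name in the tables, and all 9 were tested with the factors. With Zfp488 4 rose and 0 fell (6 and 0 at an unadjusted p under 0.05, 5 and 0 with DESeq2), where 5.89% of all genes rose and 3.15% fell. Their median log2 change was 0.74, against -0.02 over all genes. The count of rises was 2 without control replicate 4 or Zfp488 replicate 2 and 1 without Zfp488 replicate 4. Gjd2 went from 0.542, 0.904, 0.539 and 2.30 CPM to 3.30, 7.24, 6.53 and 12.1 CPM, without overlap. Its log2 change was 2.76 ± 0.54 (6.79-fold, adjusted p = 0.0116), or 3.48 without control replicate 4. Gjb2 rose by 1.63 ± 0.34 (adjusted p = 0.0138) and Panx1 by 0.44 ± 0.12 (adjusted p = 0.0402), and both calls were lost without Zfp488 replicate 4. The call of Panx1 was also lost without control replicate 2, 3 or 4 or Zfp488 replicate 2, and in a fit of these 2 groups alone (adjusted p = 0.0962).

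With Nkx2.2 1 of these 9 rose, Gjb1, and 0 fell (1 and 2 at an unadjusted p under 0.05, 1 and 1 with DESeq2), where 6.10% of all genes rose and 4.48% fell. The median was -0.08. Gjd2 stood at 0.127, 0.202, 0.545 and 0.594 CPM, a log2 change of -1.60 ± 0.63 (adjusted p = 0.129), and with the block it fell by 1.53 (adjusted p = 0.00635, 26.2% of genes called). Between the factors Gjd2 differed most, by 4.37 ± 0.62 (20.6-fold, adjusted p = 0.000458), higher with Zfp488 in every library. In that direct comparison 5 of the 9 passed, each of them higher with Zfp488, where 25.3% of all genes passed. DESeq2, the block and a fit of these 2 groups alone also called Gjb1 lower. By edgeR's quasi-likelihood test 3 passed without Nkx2.2 replicate 1 or 2.

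**Figure D4:**
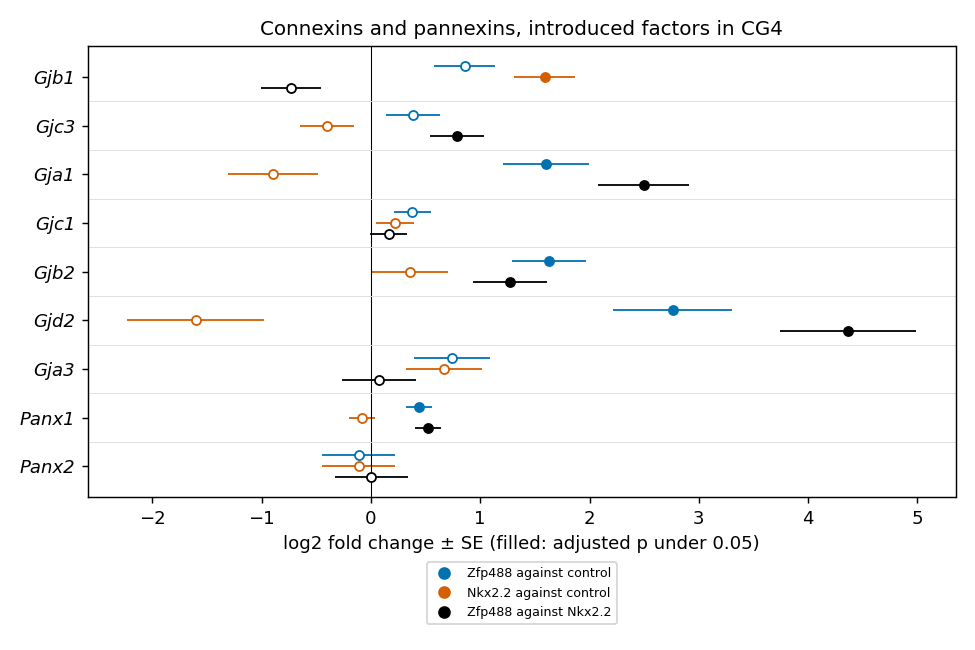
Log2 fold change ± SE of 9 connexin and pannexin genes in differentiating CG4 cells for Zfp488 against control (blue), Nkx2.2 against control (orange) and Zfp488 against Nkx2.2 (black). Filled points have an adjusted p under 0.05 by edgeR's quasi-likelihood test. Gjb1 is the filled orange point, at 1.59, and Gjd2 and Gja1 have the largest black values, at 4.37 and 2.496.

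Markers of several cell types moved beside the connexins. With Zfp488 3 of 8 mature oligodendrocyte markers rose (5.89% of all genes did), among them Aspa by 1.51 ± 0.20 (adjusted p = 0.00201) and Mog by 1.84 ± 0.39 (adjusted p = 0.0148), and their sum was 13600 to 24100 CPM. With Nkx2.2, where 6.10% of all genes rose and 4.48% fell, 0 of 8 rose (1 at an unadjusted p under 0.05 and 1 with DESeq2) and Cldn11 fell by 0.67 on the log2 scale (adjusted p = 0.00849), with a sum of 5110 to 13000 CPM. Astrocyte markers, 8 of 10 measured, summed to 1960 to 2950 CPM with Zfp488, 2090 to 3930 CPM with Nkx2.2 and 2380 to 3790 CPM in control. With Nkx2.2 1 of these 8 rose and 1 fell (1 and 3 with DESeq2). With Zfp488, where Gja1 was higher, 0 of the 8 rose (2 at an unadjusted p under 0.05 and 1 with DESeq2). Slc1a3 and Fgfr3 fell with Zfp488, by 0.79 and 0.70 on the log2 scale, where 3.15% of all genes fell. Aldh1l1 differed by 1.79 ± 0.57 with no overlap between groups (adjusted p = 0.071). Of 5 neuron markers, Tubb3 rose with Zfp488 by 1.70 ± 0.35 (adjusted p = 0.0138), from a mean of 115 to 371 CPM, and Syt1 fell by 0.80 on the log2 scale (adjusted p = 0.0311). Col3a1, of 2 fibroblast and pericyte markers, rose by 5.51 ± 0.77 (adjusted p = 0.00274), from 0.160 to 7.48 CPM. Of 4 tested Schwann cell markers 1 rose and 0 fell. It was Ngfr, which marks other cells too, by 2.40 ± 0.39 (adjusted p = 0.00452), from 5.16 to 27.1 CPM. By mean Prx went from 68.4 to 52.2 CPM, Egr2 from 9.19 to 9.17 CPM and Cdh19 from 40.7 to 55.3 CPM. Their part in the connexin changes was not tested.

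A list of 18 genes of proteins that bind, phosphorylate or sort connexins was also read, all of them tested. With Zfp488, where 9.04% of all genes passed, 1 rose and 1 fell: Prkcd, a protein kinase C, by 1.12 ± 0.29 (adjusted p = 0.0319) and Src, a tyrosine kinase that phosphorylates Cx43, by -0.31 ± 0.07 (adjusted p = 0.0233). With Nkx2.2, set against the same controls and with 10.6% of all genes called, 1 rose and 1 fell, Src by 0.83 ± 0.07 (adjusted p = 4.12e-05) and Prkcd by -1.51 ± 0.30 (adjusted p = 0.00682). Tjp1, the scaffold ZO-1 that binds the tail of Cx43, was higher with Zfp488 than with Nkx2.2 by 0.48 ± 0.15 (adjusted p = 0.0348), 1 of 5 genes higher there and 4 lower, where 25.3% of all genes passed. In primary differentiation 7 of the 18 rose and 9 fell, near the 41.5% and 43.3% of all genes, with a median of -0.06. Tjp1 rose there by 1.85 ± 0.04 (adjusted p = 1.52e-11), Mapk3, a kinase that phosphorylates Cx43, rose by 2.05 ± 0.04 (adjusted p = 2.46e-12) and Prkcd fell by 4.27 on the log2 scale (adjusted p = 8.68e-12).

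Of 8 genes of factors known to act on connexin or myelin genes, 0 were called with Zfp488 or Nkx2.2 by edgeR's quasi-likelihood test. Over all genes 9.04% and 10.6% were called, so 0 of 8 is no result about this list. At an unadjusted p under 0.05 there were 2 with Zfp488 and 0 with Nkx2.2, and with DESeq2 1 and 0. With Zfp488 Myrf, a master regulator of myelin genes, came closest (0.72 ± 0.21, adjusted p = 0.05). With the block it rose by 0.68 (adjusted p = 0.00336, 24.1% of genes called). Jun, a subunit of AP-1, was higher with Zfp488 than with Nkx2.2. The difference was 1.12 ± 0.30 (adjusted p = 0.0158, 25.3% of genes called). Its part in the Gja1 levels was not tested. Sox10, which is known to activate Gjb1, rose in primary differentiation by 1.90 ± 0.06 (adjusted p = 1.56e-10) and in CG4 differentiation by 1.01 ± 0.20 (adjusted p = 0.00209). Gjb1 was not compared in either. In the groups with Gjb1 values, Sox10 stood at 1739 ± 63.9 CPM in control, 1792 ± 114 CPM with Zfp488 and 1503 ± 200 CPM with Nkx2.2 (SD, n = 4). Neither factor's change of Sox10 against control passed. The median of the 8 was 0.87 in primary and 1.28 in CG4 differentiation, against -0.02 and 0.01 over all genes.

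The genes whose log2 CPM was most like that of each member are a description, and the libraries share groups and controls. For Gjb1, over the 12 differentiating CG4 libraries and 10568 genes, these were Prcp (Pearson r = 0.955), Gpr37 (0.934), Sema3b (0.908), Fam222a (0.902) and Snx14 (0.902). Gpr37, a receptor of oligodendrocytes, had 9.93 ± 3.91 CPM in control, 26.2 ± 10.3 CPM with Zfp488 and 62.0 ± 15.7 CPM with Nkx2.2 (SD, n = 4). For Gjc3, over all 23 libraries and 10034 genes, they were Alg14 (0.986), Mcam (0.973), Dyrk1b (0.965), Tmem260 (0.964) and Rpe65 (0.963). For Gja1 they were Otud5 (0.978), Gripap1 (0.970), Rgs16 (0.970), Col4a3bp (0.970) and Ccng1 (0.969). Otud5 and Gripap1 had 121 and 92.5 CPM in proliferating primary cells and 0.0162 and 0.0889 CPM in proliferating CG4 cells.

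The authors' deposited table for Zfp488 gives Gja1 a log2 fold change of 1.60 (adjusted p = 0.000575), Gjb1 0.86 (adjusted p = 0.0392) and Gjc3 0.39 (adjusted p = 0.242). The authors' deposited table for Nkx2.2 gives Gjb1 1.59 (adjusted p = 5.76e-07), Gja1 -0.89 (adjusted p = 0.0735) and Gjc3 -0.40 (adjusted p = 0.313). Set beside the edgeR fit, the log2 changes of the members were alike to 0.01, and Gjb1 with Zfp488 was called in the authors' deposited table but not in that fit.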

How the data were processed

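RNA of 23 rat libraries was read by paired-end sequencing. The deposited files hold raw counts per gene, which the authors made with Trimmomatic 0.36, STAR 2.5.2b and featureCounts of Subread 1.5.2 on build rn6, per the submitters' processing notes. Strand setting, annotation release and multi-mapping rules are not given in the sources used, so overlapping genes are uncertain. The authors' deposited tables (DESeq2, per the submitters' notes) hold log2 fold changes, p-values and a normalized signal, and gave the gene names. They name 14690 identifiers and cover differentiating CG4 cells. The count files of differentiating CG4 cells list 32552 genes and the others 15219, which do not include Gjb1.

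The test was edgeR 4.0.16 under R 4.3.3 (quasi-likelihood, TMM, filterByExpr, two-sided, Benjamini-Hochberg over all genes, threshold 0.05). The 12 differentiating CG4 libraries shared 1 fit and primary cells another, CG4 differentiation a further one, and comparisons of cell systems used 15 libraries. CPM were scaled by TMM over 23 libraries. The p-values measure the spread between libraries that the titles call biological replicates. Log2 ratios added 0.5 reads, and likeness used log2 CPM with a prior count of 2 and a mean of at least 5 CPM. The rule for likeness named 23 libraries, and for Gjb1 the 12 that list it were used. Named genes are the 3 members, every measured connexin or pannexin, up to 4 genes of a list by smallest adjusted p, and the 5 genes most like each member. Tjp1 between the factors and Sox10 in CG4 differentiation and with the factors lie outside the rule and were chosen after their values were seen. The members and lists were chosen with earlier results of these data known. Some list genes are not reported here and enter no count or sum of a list.

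Same-numbered libraries of the 3 differentiating CG4 groups deviated together (r of 0.148 to 0.666), so the numbers pair them, though no label says what the number stands for. Replicates differed by more than counting noise in every group (chi-square over degrees of freedom of at least 1.77). Primary (-0.02 to 0.06) and control with proliferating CG4 libraries (-0.12 to 0.04) were not paired. The tests of each factor against control and of both differentiations were first run on simulated counts with known changes. Alternatives were RLE size factors, no filter, DESeq2 1.42.0, the block, other sets of libraries and leaving out each library.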

Additional observations from a re-analysis of the deposited data

Results flagged for a closer look

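For 5 connexin and pannexin genes the response to differentiation differed between CG4 and primary cells by the interaction test. The CG4 response also held a change of vector and read length. On the log2 scale, CG4 minus primary, the difference was 3.92 for Gja1, -8.69 for Gjc3, 3.29 for Gjd2, -1.77 for Panx1 and 2.79 for Panx2. For Gjd2 the adjusted p was 0.0318, and the call was lost without proliferating CG4 library 1 or 2, proliferating primary library 1, 2 or 4, or differentiating primary library 1. It was also lost with the replicate block (adjusted p = 0.0549) and without differentiating primary libraries 1 and 2 (0.0911) or 3 and 4 (0.0513). The difference was 5.65 without proliferating CG4 library 3 and 2.58 without control replicate 4.

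In 5 of 43 groups of 4 libraries of connexin and pannexin genes, the gap of 1 library to its nearest neighbour was large against the group's range. Chance gives this in about 1 in 20 groups of independent, normally distributed values. Counts of a few reads are not such values and the groups share libraries, so 5 of 43 cannot be set against that rate. In proliferating primary cells the groups found were Gja3, highest at 0.133 CPM (5 reads against 1 in each other library), and Gjd2, lowest at 0.0435 CPM (1 read against 3 or 4). Panx1 was found there too, lowest at 50.4 CPM against 54.8 to 55.5 CPM. In differentiating primary cells Gjd2 was lowest at 0.0344 CPM (1 read against 3 or 4), and with Nkx2.2 Gjb2 was highest at 1.55 CPM. No level of Gjb1, Gjc3 or Gja1 was among them. Proliferating CG4 cells, with fewer libraries, were not checked, and there Gjc3 stood at 302, 51.3 and 44.7 CPM.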

How the results depend on the processing

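The 19 results of Gjb1, Gjc3 and Gja1 gave 107 values under other settings, of which 99 kept direction and side of the threshold, 6 gained a call, 1 lost one and 1 reversed. Gjb1 with Zfp488 gained its call with DESeq2 (0.86) and the replicate block (0.89). Against Nkx2.2 it did so with DESeq2 (-0.73), the block (-0.78) and a fit of the compared groups alone (-0.73), where Gjc3 (0.79) lost its call. Gja1 in primary differentiation was -0.98 without differentiating libraries 1 and 2 and 0.20, reversed, without 3 and 4. Genes called with Zfp488 were 1339, against 2144 with DESeq2 and 3576 with the block, and the block gave 3876 for Nkx2.2 (1567 without) and 6276 for Zfp488 against Nkx2.2 (3741 without). The cause was not tested. Leaving out 1 library in turn gave 162 values, of which 10 lost and 3 gained a call. Ranges were 0.68 to 1.21 for Gjb1 and 1.20 to 1.83 for Gja1 with Zfp488, -0.91 to -0.61 for Gjb1 and 0.63 to 1.03 for Gjc3 between the factors, and -0.077 to 1.81 for Gjc3 in CG4 differentiation. Genes called ranged from 458 to 1509 with Zfp488 and from 924 to 2302 with Nkx2.2. Scaled by raw library totals, Gja1 was 115 CPM in proliferating primary cells, and Gjc3 was 2.33 CPM there and 881 CPM after differentiation. Of the 5 genes most like Gjb1, 3 stayed with Spearman's rho, and 1 each for Gjc3 and Gja1, for which 0 stayed over 12 libraries. The block changed no other call of the 3 genes. Gja1 in proliferating CG4 cells rests on 8, 3 and 11 reads.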
